A study of Homo sapiens with 6 samples.

Results

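A set of 10 genes of the endoplasmic reticulum (ER) unfolded protein response was followed in Huh-7 cells, a line from a human hepatocellular carcinoma, with and without stable overexpression of RAC3, a small GTPase. The genes were chosen by function and matched by symbol: ERN1, ATF6, XBP1, HERPUD1, SEL1L, EDEM1, CRELD2, MANF, PDIA4 and SYVN1, 10 of the 20332 genes in the deposited count table. Poly(A) RNA was sequenced in 3 negative control libraries and 3 RAC3 overexpression libraries. The stable RAC3 line was made with lentivirus; the promoter that drives RAC3, how the control line was made and whether each line was 1 clone are not given in the sources used here. The control libraries are labelled wild type by genotype. Among the RAC3 libraries, the titles name RAC3 throughout, whereas the genotype labels of samples 2 and 3 name RAC4 and RAC5, so the results are also given with sample 1 alone. The methods call the RNA samples of each group independent without saying whether they came from separate cultures, so p-values measure only the spread between these libraries, which may be technical.

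The lumen of the ER is where secreted and membrane proteins fold, and hepatocyte-derived cells secrete a great deal of protein. Unfolded protein in the lumen is sensed by the transmembrane proteins IRE1 (gene ERN1), ATF6 and PERK (gene EIF2AK3). IRE1 is an endoribonuclease that removes a short intron from XBP1 mRNA, which gives an active transcription factor, whereas ATF6 moves to the Golgi and is cut there to release one. The genes they switch on encode chaperones and folding enzymes and the machinery of ER-associated degradation (ERAD), which draws misfolded protein out of the lumen for ubiquitination. Gene-level counts do not see XBP1 splicing, ATF6 cleavage or IRE1 activation, and what follows concerns mRNA amounts only.

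The DNA element that ATF6 and XBP1 bind, the ER stress response element (ERSE), has the letters CCAAT and CCACG with 9 free bases between them, and a shorter form, ERSE-II, has ATTGG and CCACG with 1 free base between them. Both were searched on both strands in RefSeq promoter windows of GRCh38.p14, from 250 bases before to 50 bases after each start site. All 10 genes matched the promoter table, with 12 windows between them. Exact matches lay in 3 of the genes, ERSE in XBP1 and CRELD2 and ERSE-II in HERPUD1. Of all 35116 windows, 0.0769% held ERSE and 0.0541% held ERSE-II. Counted by gene, with a match in any of its windows, the shares were 0.0916% and 0.0696% of 27305 genes. The sites are shown because these elements are what the genes of the response are known for, with that of HSPA5 (the chaperone BiP) for reference. Sequences run on the strand of the gene and capitals mark the fixed letters of the element, which in CRELD2 reads on the opposite strand.
XBP1: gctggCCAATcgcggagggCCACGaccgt
HERPUD1: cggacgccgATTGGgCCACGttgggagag
CRELD2: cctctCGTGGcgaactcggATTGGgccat
HSPA5: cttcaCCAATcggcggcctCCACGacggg
The XBP1 window lies at chr22:28800598-28800626 on the minus strand, and its element begins 52 bases before the start site. The HERPUD1 window lies at chr16:56932016-56932044 on the plus strand, with the element 117 bases before the start, and the CRELD2 window at chr22:49918549-49918577 on the plus strand, with the element 80 bases before. The HSPA5 window lies at chr9:125241386-125241414 on the minus strand, with the element 66 bases before the start. These start sites are those of RefSeq and differ from the gene ends given below, which come from GENCODE. The CRELD2 window thus lies inside the span given for that gene. With 1 mismatch allowed in the fixed letters of ERSE, matches lay in 5 of the 10 genes, adding SEL1L and SYVN1. Of all genes 1.89% then had a match, and of all windows 1.55%. The TGACGTG core of the unfolded protein response element was in none of the 10 genes' windows, in 1.97% of all windows and in 2.40% of all genes. The short cores are common. CCACG was in 42.1% of all genes (38.1% of windows) and in 8 of the 10 genes (not in ERN1 or ATF6). CCAAT was in 39.7% of all genes (34.6% of windows) and in 8 of the 10 (not in ATF6 or SYVN1). A match is a description of letters and does not show binding.

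The libraries held 13855762 to 18199888 counts. RAC3 itself, the targeted gene, had 35.6, 31.4 and 32.8 normalized CPM (counts scaled by library size with TMM factors) in the controls and 232.6, 239.6 and 225.4 in the RAC3 libraries, a log2 fold change of 2.81, so each library went with its title. Hepatocyte markers were present (8 of 8 tested, summed level 4878 to 5026 CPM in controls and 4549 to 5076 CPM with RAC3). The leukocyte list summed to 4.84 to 6.68 CPM in controls and 7.72 to 9.18 CPM with RAC3, nearly all of it CD68, with CD3E at 0 to 2 counts and PTPRC at 0 to 9 counts. Endothelial markers summed to 2.49 to 3.06 CPM and 2.74 to 3.70 CPM, and stellate and fibroblast markers to 38.9 to 41.5 CPM and 35.1 to 36.5 CPM. Nearly all of the latter was COL1A1, with group means of 38.3 and 33.0 normalized CPM. PDGFRB had means of 2.93 and 1.78 normalized CPM, and ACTA2 had 0 to 7 counts.

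The 10 genes changed little. None rose and 2 fell, XBP1 and SYVN1, at an adjusted p below 0.05 in the quasi-likelihood test of edgeR, adjusted by Benjamini-Hochberg over 12941 genes tested. All 10 passed the filter on low counts, with 442 to 12590 counts per library. By the same rule 28.5% of all genes tested were called (13.3% higher and 15.3% lower), so 2 of 10 is near the background. At a fold change above 1.5 with an unadjusted p below 0.05, 4.68% of all genes were called (1.68% higher and 2.99% lower) and none of the 10. Their log2 fold changes ran from −0.16 to 0.12 with a median of −0.062, beside a median of 0.0036 over all genes tested. The sign was negative in 8 of the 10 genes and in 6400 of the 12941 genes tested. It was negative in 5 of the 10 when libraries were scaled by their size alone. That scaling moved the median of the 10 to −0.0054 and the median over all genes tested to 0.060. The median of the 10 thus stayed below that of all genes. Groups did not overlap for XBP1 and SYVN1, both lower with RAC3, while 42.5% of all genes did not overlap (20.9% higher and 21.6% lower). With 3 libraries against 3, an exact permutation test of a single gene cannot give a p under 0.10. The share of counts on the 13 mitochondrial genes also moved with the group, from 1.96% to 2.09% in controls to 2.28% to 2.42% with RAC3, and its part in these differences was not tested. In such bulk samples, fewer cells of a kind and less RNA per cell cannot be told apart.

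**Figure D1:**
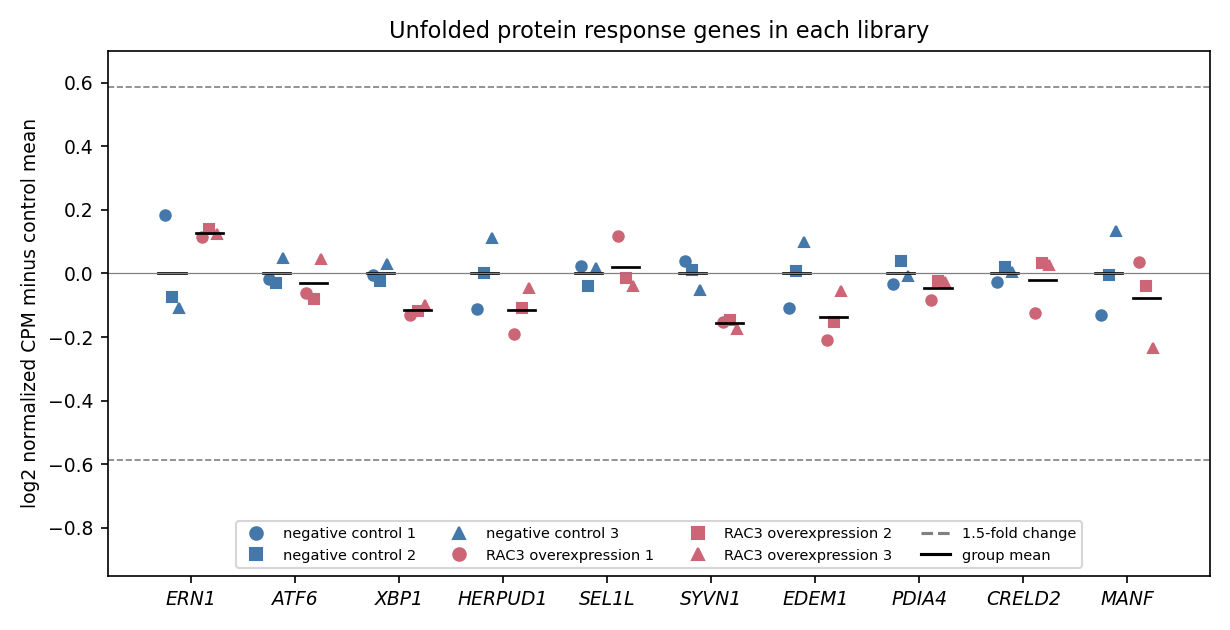
Normalized level of each of the 10 genes in each library, as log2 CPM minus the control mean of that gene (y axis); circles, squares and triangles are libraries 1, 2 and 3, blue for negative control and red for RAC3 overexpression, short lines are group means and dashed lines mark a 1.5-fold change. Every library lies inside the dashed lines, and only for XBP1 and SYVN1 do the red points all lie below the blue ones.

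The intervals bound how large a change these libraries leave room for. The 95% interval of every one of the 10 log2 fold changes lay inside a 1.5-fold change in either direction, as did that of 74.4% of all genes tested. The standard errors (SE) of the 10 ran from 0.0368 to 0.0834, all below the median of 0.0847 over all genes tested. The 10 were thus measured more precisely than the median gene. The lowest bound was that of SYVN1 at −0.27 and the highest that of ERN1 at 0.29. A change larger than these bounds was outside the interval for each gene, which does not show that the genes with intervals across 0 were equal in both lines.

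**Figure D2:**
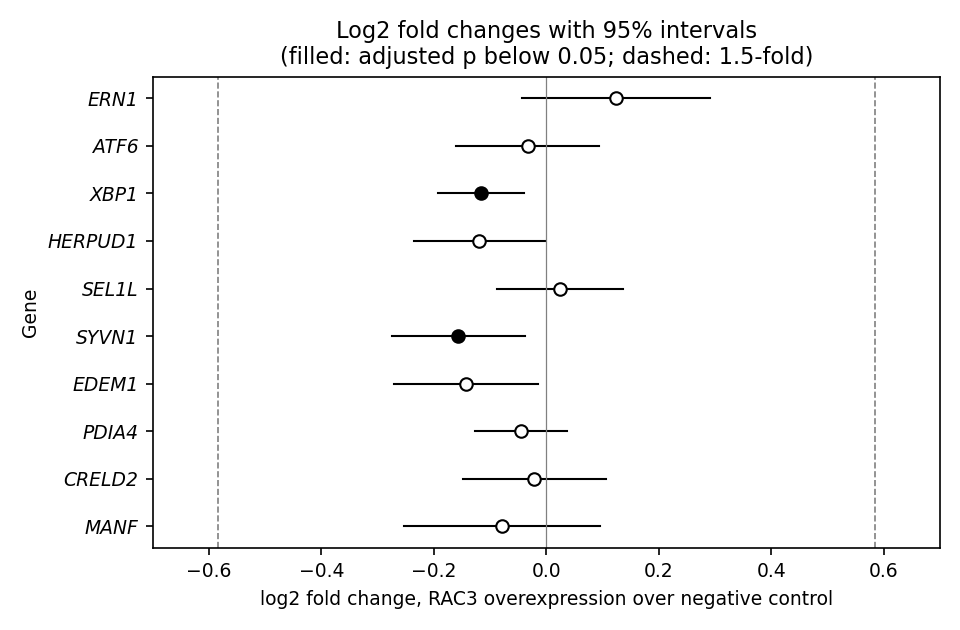
Log2 fold change of each gene, RAC3 overexpression over negative control (x axis), with its 95% interval from the edgeR fit on 3 libraries per group; filled points have an adjusted p below 0.05 and dashed lines mark a 1.5-fold change. XBP1 at −0.12 and SYVN1 at −0.16 are filled, and all 10 intervals stay within the dashed lines.

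Among the sensors, ERN1 (ENSG00000178607, chromosome 17, 64039142 to 64130819, minus strand, GRCh38 here and for each gene that follows), which encodes IRE1, had 36.9, 30.9 and 30.1 CPM in the controls and 35.2, 35.8 and 35.4 CPM with RAC3. In these TMM-scaled values control library 1 was the highest of the 6, above every RAC3 library, and the other controls were the lowest. In the authors' FPKM values the groups did not overlap, at 4.668, 4.068 and 4.005 in the controls and 4.749, 4.762 and 4.726 with RAC3. The log2 fold change was 0.12 (SE 0.0801, edgeR adjusted p = 0.264). It came to 0.21 without control library 1 (edgeR adjusted p = 0.0515) and to 0.062 without control library 3 (0.655). ATF6 (ENSG00000118217, chromosome 1, 161766294 to 161964070, plus strand) had 56.5, 55.9 and 59.0 CPM in the controls and 54.8, 54.0 and 59.0 CPM with RAC3. RAC3 libraries 1 and 2 lay below the controls and RAC3 library 3 among them, and the log2 fold change was −0.033 (SE 0.0611, edgeR adjusted p = 0.726), or 0.023 with scaling by library size alone.

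XBP1 (ENSG00000100219, chromosome 22, 28794555 to 28800597, minus strand), the transcription factor whose mRNA IRE1 splices, had 686.1, 676.9 and 702.0 CPM in the controls and 629.2, 634.1 and 642.3 CPM with RAC3. All 3 RAC3 libraries were below all 3 controls. XBP1 mRNA fell by 7.73%, from 688.3 ± 12.7 to 635.2 ± 6.63 CPM (mean ± SD over 3 libraries each). The log2 fold change was −0.12 (SE 0.0368, edgeR adjusted p = 0.0232). The exact permutation test gave p = 0.1, the smallest that it can give here. The call ended with scaling by library size alone (log2 fold change −0.060, edgeR adjusted p = 0.230) and, with values about as large, without control library 3 (−0.11, 0.0742) and without RAC3 library 3 (−0.12, 0.0612). With RAC3 sample 1 alone it was −0.13 (edgeR adjusted p = 0.0850), a fit in which the controls supply all of the spread and the lone library is assumed to vary as they do. On the FPKM scale it was −0.060 (limma adjusted p = 0.277 with a pseudocount of 0.1). The median over all genes tested was 0.054 on that scale.

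SYVN1, SEL1L, HERPUD1 and EDEM1 act in ERAD. SYVN1 (ENSG00000162298, chromosome 11, 65121780 to 65134533, minus strand) encodes the ubiquitin ligase HRD1 of the ER membrane. It had 72.4, 70.9 and 68.0 CPM in the controls and 63.4, 63.6 and 62.4 CPM with RAC3, without overlap. SYVN1 mRNA fell by 10.3%, from 70.4 ± 2.27 to 63.1 ± 0.642 CPM (mean ± SD over 3 libraries each). The log2 fold change was −0.16 (SE 0.0563, edgeR adjusted p = 0.0436). The adjusted p sat close to the threshold. Leaving out any 1 library other than control library 3 ended the call (edgeR adjusted p = 0.0721 without RAC3 library 2, 0.0760 without RAC3 library 1, 0.107 without control library 2, 0.112 without control library 1 and 0.125 without RAC3 library 3), although the log2 fold change stayed between −0.16 and −0.14 in these fits. DESeq2 in place of edgeR (adjusted p = 0.0742), no filter beyond genes without counts (edgeR adjusted p = 0.0527), scaling by library size alone (−0.10, 0.194) and the FPKM scale (−0.089 with a pseudocount of 0.1, limma adjusted p = 0.351) ended it too. With RAC3 sample 1 alone SYVN1 was at −0.15 (edgeR adjusted p = 0.208). Removing each library's trend with GC content brought SYVN1 to −0.054 (edgeR adjusted p = 0.500). The exons of SYVN1 share 398 bases with FAU on the same strand, 7.24% of the 5496 exonic bases of SYVN1, and 356 bases with MRPL49 on the opposite strand. Whether counting used strand is not given in the sources used here, so reads in those bases cannot be assigned with certainty. FAU had a log2 fold change of −0.16 (edgeR adjusted p = 0.0959) and MRPL49 one of −0.061 (0.482).

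SEL1L (ENSG00000071537, chromosome 14, 81471549 to 81533861, minus strand), the partner that stabilizes HRD1, had 116.6, 111.6 and 116.1 CPM in the controls and 124.6, 113.7 and 111.6 CPM with RAC3. RAC3 library 1 was the highest of the 6 and the other RAC3 libraries lay among the controls. The log2 fold change of SEL1L was 0.024 (SE 0.0535, edgeR adjusted p = 0.776), and it was −0.027 without RAC3 library 1. SYVN1 and SEL1L thus differed in call, but the difference between their changes was not itself tested in the fit. With the GC trend removed neither was called, SYVN1 at −0.054 and SEL1L at −0.096.

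HERPUD1 (ENSG00000051108, chromosome 16, 56932048 to 56944863, plus strand), a membrane protein that assembles HRD1 complexes, had 159.4, 172.3 and 186.0 CPM in the controls and 151.0, 159.7 and 166.8 CPM with RAC3. EDEM1 (ENSG00000134109, chromosome 3, 5187646 to 5219957, plus strand), a lectin-like protein that directs misfolded glycoproteins to ERAD, had 84.3, 91.4 and 97.4 CPM in the controls and 78.7, 81.9 and 87.5 CPM with RAC3. Both genes had the same order of libraries in each group, with library 1 the lowest and library 3 the highest, and both overlapped between groups. The log2 fold change was −0.12 for HERPUD1 (SE 0.0559, edgeR adjusted p = 0.119) and −0.14 for EDEM1 (SE 0.0615, edgeR adjusted p = 0.0904). Without control library 1, both passed the threshold, HERPUD1 at −0.18 (edgeR adjusted p = 0.0198) and EDEM1 at −0.20 (0.0219). With the GC trend removed, HERPUD1 was called (−0.15, edgeR adjusted p = 0.0460), as was ATF6 (−0.17, 0.0435), whereas EDEM1 was not. Exons of EDEM1 share 653 bases (9.66% of its own) with the antisense gene AC026202.3.

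The other members fold proteins or reside in the ER lumen. PDIA4 (ENSG00000155660, chromosome 7, 149003062 to 149028641, minus strand), a disulfide isomerase, had 443.8, 467.2 and 452.0 CPM in the controls and 429.1, 446.8 and 445.5 CPM with RAC3, a log2 fold change of −0.045 (SE 0.0395, edgeR adjusted p = 0.429). CRELD2 (ENSG00000184164, chromosome 22, 49918167 to 49927540, plus strand), an ER-resident protein induced by ER stress, had 62.2, 64.3 and 63.6 CPM in the controls and 58.1, 64.8 and 64.6 CPM with RAC3. Only RAC3 library 1 stood below the controls for CRELD2, and the log2 fold change was −0.022 (SE 0.0607, edgeR adjusted p = 0.827). MANF (ENSG00000145050, chromosome 3, 51385047 to 51389397, plus strand), an ER protein that binds BiP and is secreted under stress, had 33.7, 36.8 and 40.5 CPM in the controls and 37.8, 35.9 and 31.4 CPM with RAC3. Its libraries ranked in opposite order in the 2 groups, and the log2 fold change was −0.078 (SE 0.0834, edgeR adjusted p = 0.521). None of these 3 genes was called under any of the 19 alternative settings. With scaling by library size alone, PDIA4 came to 0.011 and CRELD2 to 0.035. The exons of CRELD2 share 168 bases (3.25% of its own) with ALG12 on the opposite strand.

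Levels can be compared between genes only per transcript length, for which the FPKM values of the authors (fragments per kilobase, scaled to library size) were used. XBP1 was the most abundant of the 10, at 366.2 ± 8.14 FPKM in controls (mean ± SD, n = 3), above 98.5% of the genes tested. PDIA4 followed at 159.0 ± 5.04 FPKM, HERPUD1 at 93.2 ± 8.01, CRELD2 at 43.8 ± 1.26, MANF at 39.9 ± 3.95 and SYVN1 at 23.3 ± 1.14 FPKM. ATF6 at 16.4 ± 0.504, SEL1L at 15.6 ± 1.66 and EDEM1 at 14.8 ± 1.25 FPKM lay close together. ERN1 was the lowest at 4.25 ± 0.366 FPKM, above 32.0% of the genes tested. Neighbours in this order whose control libraries overlapped were CRELD2 and MANF, ATF6 and SEL1L, and SEL1L and EDEM1. The mRNA of the transcription factor XBP1 was thus far above that of ERN1, whose product splices it. In the RAC3 libraries XBP1 had 351.3 ± 2.91 FPKM and ERN1 had 4.75 ± 0.0182 FPKM (mean ± SD, n = 3).

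**Figure D3:**
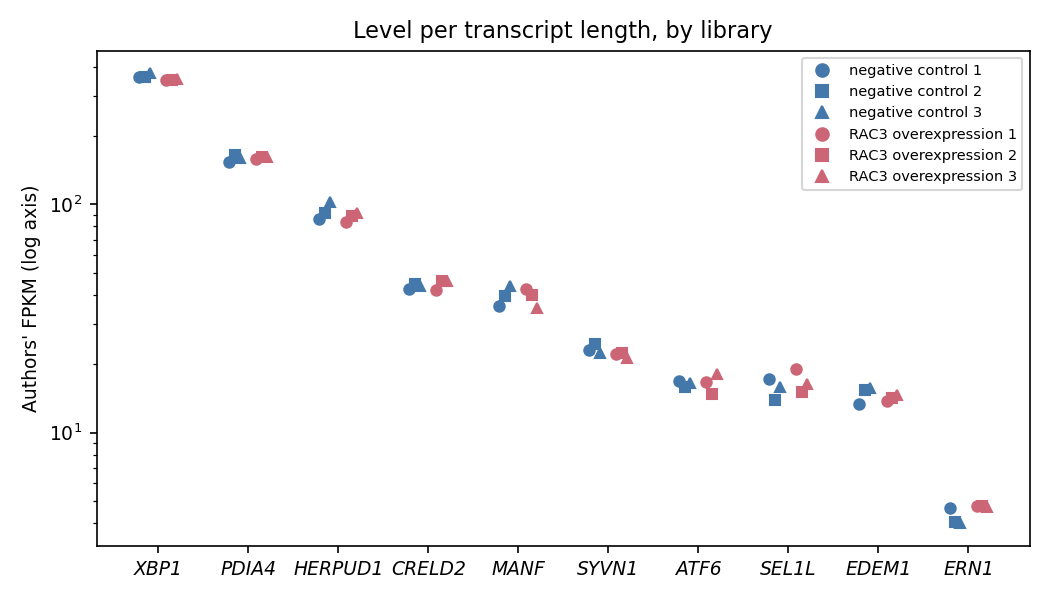
Level of each gene per transcript length in each library, as the authors' FPKM on a log axis, genes ordered by the control mean; symbols are libraries 1, 2 and 3 in blue for negative control and red for RAC3 overexpression. The levels span from 4.25 FPKM for ERN1 to 366.2 FPKM for XBP1 in controls, while ATF6, SEL1L and EDEM1 lie close together.

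Between 0 and 3 of the 10 genes were called under each setting tried. The count was 3 with the GC trend removed, where 2637 of 12863 genes tested were called. It was also 3 without control library 1, where 2863 of 13114 were called. XBP1 was called in 12 and SYVN1 in 5 of 19 alternatives, HERPUD1 in 3, ATF6 and EDEM1 in 1 each and the others in none. Called values were negative wherever a call was made, and no setting took any of the 10 past a fold change of 1.5. With RAC3 sample 1 alone against the controls, where only the controls supply the spread, the median log2 fold change of the 10 was −0.10. None was called in edgeR in that fit and 3 had an unadjusted p below 0.05, while the genes called among all tested came to 2395, so the lost calls say nothing of the size of the differences. With all libraries, 4 of the 10 had an unadjusted p below 0.05 (XBP1, SYVN1, EDEM1 and HERPUD1), as did 39.2% of all genes tested.

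**Figure D4:**
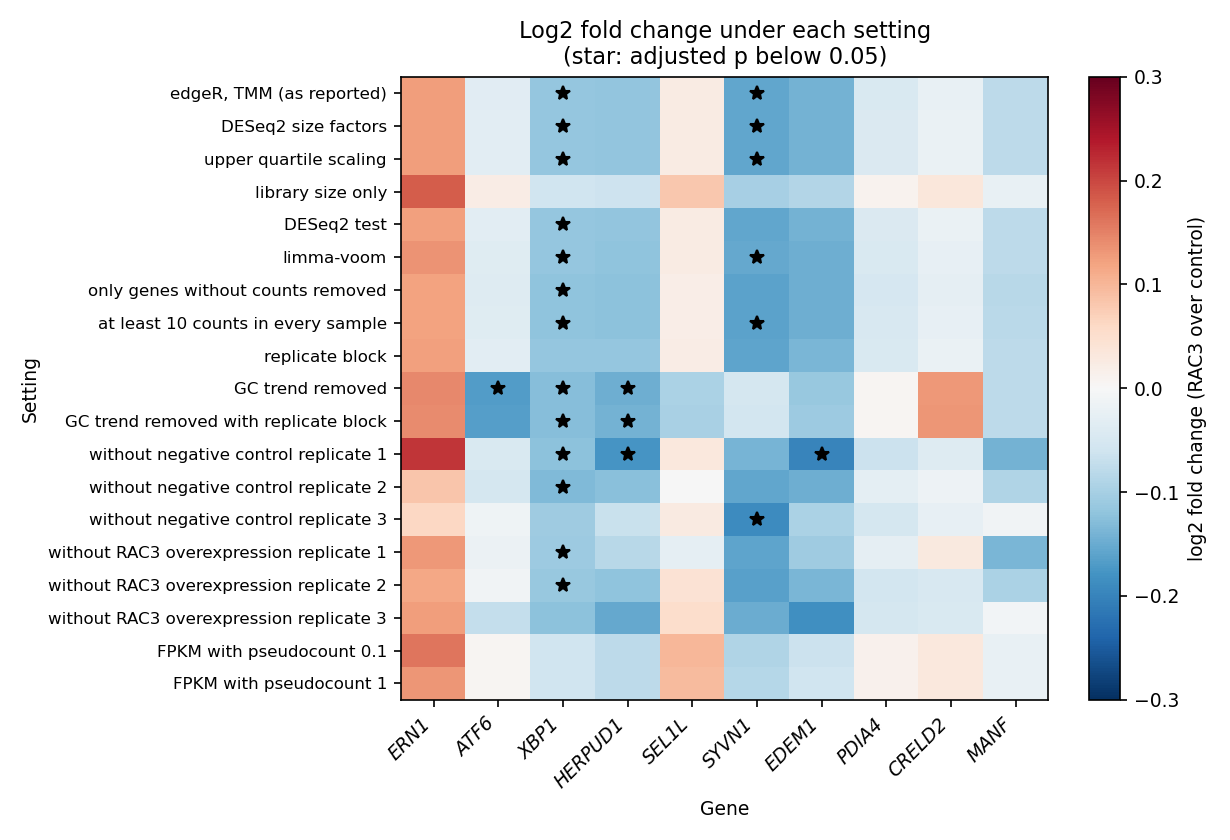
Log2 fold change of each of the 10 genes (columns, RAC3 overexpression over negative control) under the reported fit and the alternative settings run on all or on 5 of the libraries (lines); colour gives the value and a star an adjusted p below 0.05. XBP1 carries most stars, the stars all sit on negative values, and ATF6, CRELD2, PDIA4 and SEL1L change sign between lines.

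Other genes of the response were read from 5 lists by role, 79 genes of which 77 were tested. Of these, 12 rose and 12 fell, 15.6% in each direction beside 13.3% and 15.3% of all genes tested, and their median log2 fold change was −0.00015. Genes of both directions were found in each list. ERN2, a paralog of ERN1 active mainly in gut epithelium, had 0 counts in 5 libraries and 1 in the other, and DERL3 had at most 5 counts, so neither was tested.

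Of 9 further sensors and transducers tested, 1 rose and 2 fell. EIF2AK3, which encodes PERK, was not called (log2 fold change 0.056, edgeR adjusted p = 0.499, and −0.057 with the GC trend removed). CREB3L3, a liver-enriched membrane-bound transcription factor of the ATF6 kind, rose from 36.0 to 49.5 CPM (log2 fold change 0.46, edgeR adjusted p = 8.4e-05). CREB3L2, another of that kind, fell from 380.9 to 316.4 CPM (−0.27, edgeR adjusted p = 7.9e-05), and ATF6B, the paralog of ATF6, fell from 80.0 to 67.7 CPM (−0.24, 0.00366). The ATF6B call ended with the GC trend removed (−0.12, edgeR adjusted p = 0.117) and on the FPKM scale (−0.18 with a pseudocount of 0.1, limma adjusted p = 0.0612).

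Of 18 chaperones and folding enzymes, 2 rose and 2 fell. HSPA5, which encodes BiP, the chief chaperone of the lumen, had 1053, 1129 and 1133 CPM in the controls and 986, 1012 and 959 CPM with RAC3, without overlap. It fell by 0.17 on the log2 scale (SE 0.0390, edgeR adjusted p = 0.00368), and was not called on the FPKM scale (−0.12 with a pseudocount of 0.1, limma adjusted p = 0.110). DNAJB9, a cochaperone of BiP and a target of XBP1, had 96.5, 94.9 and 100.8 CPM in the controls and 73.4, 69.5 and 67.4 CPM with RAC3. Its log2 fold change of −0.47 (SE 0.0557, edgeR adjusted p = 5.2e-06) was the lowest of the list, and it was called under all 19 alternatives. DNAJC10, a disulfide reductase that serves ERAD, rose by 0.24 on the log2 scale (edgeR adjusted p = 0.00469), and DNAJB11, another cochaperone of BiP, rose by 0.17 (0.0256). With the GC trend removed neither was called, DNAJC10 at 0.058 (edgeR adjusted p = 0.409) and DNAJB11 at 0.068 (0.369). The DNAJB11 call also ended without control library 1 (0.13, edgeR adjusted p = 0.112), control library 3 (0.17, 0.0653), RAC3 library 1 (0.17, 0.0673) or RAC3 library 2 (0.15, 0.0866).

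Of 20 ERAD genes other than the members, 3 rose and 2 fell, with a median log2 fold change of 0.073. UFD1 (0.27, edgeR adjusted p = 0.00111), FAF2 (0.20, 0.00178) and UBXN4 (0.18, 0.0153), which serve the segregase VCP on the cytosolic side, rose. VCP itself was not called (0.059, edgeR adjusted p = 0.304). With the GC trend removed FAF2 came to 0.12 (edgeR adjusted p = 0.0272) and UBXN4 to 0.058 (0.348), and UBXN4 was not called without control library 1 (0.14, 0.0674) or RAC3 library 1 (0.13, 0.0902). RNF5, a membrane ubiquitin ligase, fell (−0.20, edgeR adjusted p = 0.0152). It was not called with the GC trend removed (−0.10, edgeR adjusted p = 0.172), with scaling by library size alone (−0.14, 0.0717) or without RAC3 library 1 (−0.18, 0.0530). Of 19 genes of translocation and transport to the Golgi, 4 rose and 2 fell. SEC62, a translocon subunit that is also a receptor in ER autophagy, rose from 92.7 to 117.2 CPM (log2 fold change 0.34, edgeR adjusted p = 9.3e-05), and SPCS3, of the signal peptidase, rose by 0.33 (0.00117). SSR1, of the translocon-associated complex, rose by 0.16 (edgeR adjusted p = 0.0238). With the GC trend removed SEC62 came to 0.18 and SPCS3 to 0.17, both still called, and SSR1 to 0.069 (edgeR adjusted p = 0.330). SSR1 was not called either without control library 1 (0.12, edgeR adjusted p = 0.105), control library 2 (0.17, 0.0620), RAC3 library 2 (0.13, 0.105) or RAC3 library 3 (0.16, 0.0757). SEC61A1, the pore of the translocon, fell from 776.5 to 702.4 CPM (−0.14, edgeR adjusted p = 0.0051) and SSR2 fell by 0.11 (0.0471). With scaling by library size alone neither was called, SEC61A1 at −0.088 (edgeR adjusted p = 0.0635) and SSR2 at −0.054 (0.331), and leaving out any single library ended the SSR2 call (−0.13 to −0.089, edgeR adjusted p = 0.0581 to 0.159).

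**Figure D5:**
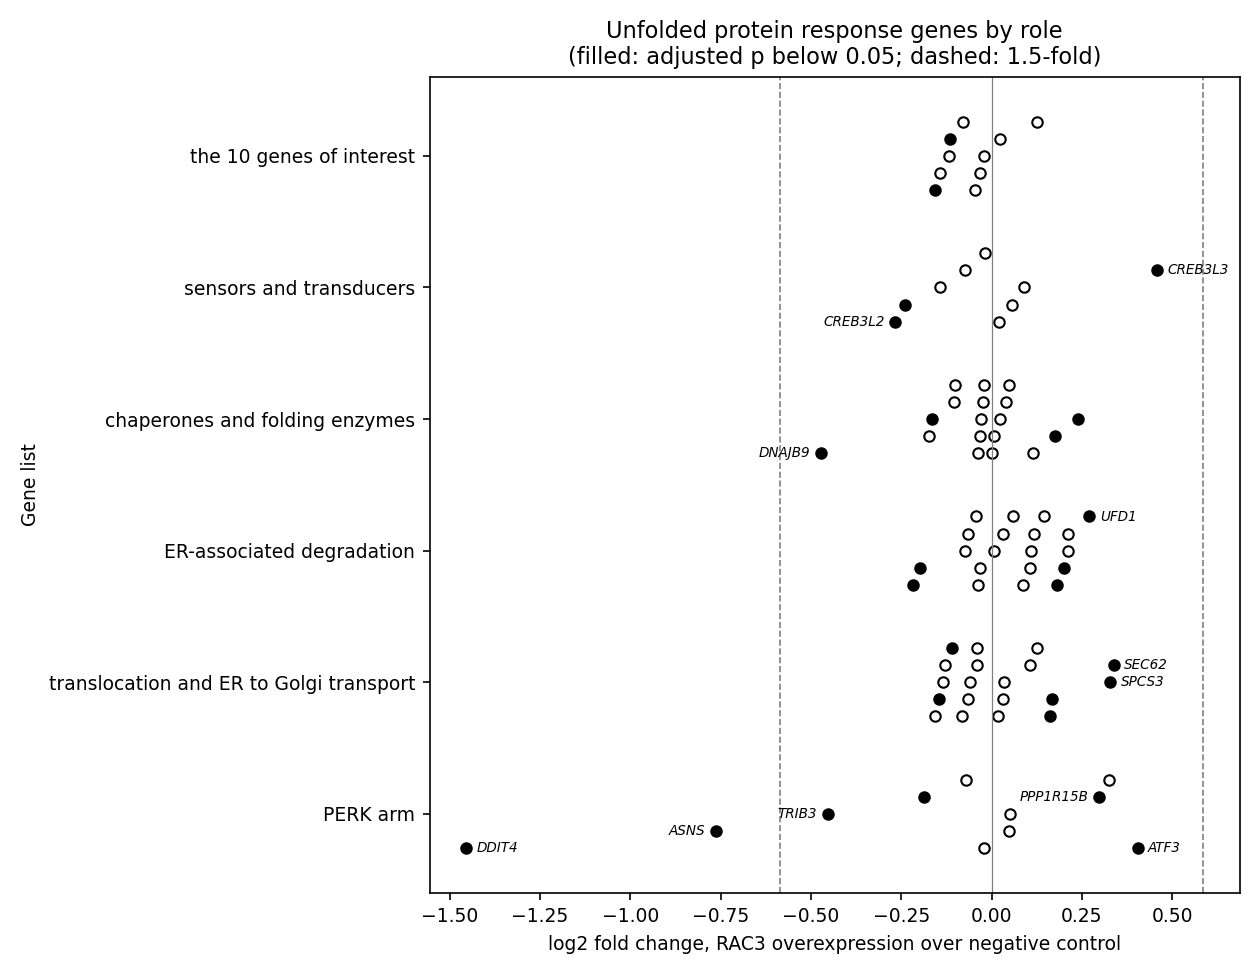
Log2 fold change (x axis, RAC3 overexpression over negative control) of the tested genes in the 10-gene set and in 5 other lists of the response (y axis, 1 point per gene, spread vertically for legibility); filled points have an adjusted p below 0.05 and dashed lines mark a 1.5-fold change. Of the genes shown, only DDIT4 and ASNS lie beyond the dashed lines, and the 10 genes cluster near 0.

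Of 11 genes tested on the list of the PERK arm, 2 rose and 4 fell. These are 18.2% and 36.4%, beside 13.3% and 15.3% of all genes tested. Whether PERK had a part in these changes was not tested. The largest changes of the 5 lists, those of DDIT4 and ASNS, were in this arm. ATF4, its transcription factor, was at 547.2 CPM in controls and 520.8 CPM with RAC3 (log2 fold change −0.072, edgeR adjusted p = 0.200, and 0.015 with the GC trend removed), and DDIT3, which encodes CHOP, was at 9.83 and 9.66 CPM (−0.022, 0.920, and 0.035 with scaling by library size alone). ASNS, asparagine synthetase and a target of ATF4, fell from 425.3 to 250.6 CPM (−0.76, edgeR adjusted p = 2.6e-10). TRIB3, a pseudokinase induced by ATF4 and CHOP, fell from 260.9 to 190.6 CPM (−0.45, edgeR adjusted p = 1.4e-05, and −0.28 with the GC trend removed). DDIT4, an inhibitor of mTORC1, had 112.5, 63.2 and 37.0 CPM in the controls and 23.1, 26.6 and 27.2 CPM with RAC3, a log2 fold change of −1.45 (edgeR adjusted p = 0.000163). The controls of DDIT4 were spread widely, and its log2 fold change ran from −1.78 to −0.96 when single libraries were left out, the latter without control library 1. ATF3, a stress-induced transcription factor, rose by 0.40 on the log2 scale (edgeR adjusted p = 0.00105), and PPP1R15B, a regulatory subunit of the phosphatase for eIF2α, rose by 0.30 (0.000405, and 0.19 with the GC trend removed).

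For 3 of the genes, those with the most similar profile were sought among genes of at least 50 mean counts, by the root-mean-square distance of mean-centred log2 CPM over the 6 libraries. The nearest to ERN1 were NOCT (distance 0.0334), PTER (0.0337) and PDE12 (0.0395). The nearest to ATF6 were ACAD10 (0.0119), EHD1 (0.0188) and AP5B1 (0.0202), and to XBP1 they were H2AX (0.0117), ANXA5 (0.0140) and MAN2A2 (0.0145). With 6 libraries of 2 groups, such likeness is a description of level only.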

How the data were processed

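The deposited table holds raw counts per gene and FPKM values that the authors computed for 6 libraries; RNA was selected with oligo(dT) and prepared with the NEBNext Ultra RNA kit. The submitters' processing notes name Bowtie2 2.2.8, HISAT2, StringTie 1.3.1 and DESeq2 without their roles. The genome build and the strand setting of counting are not given in the sources used here. Groups came from sample titles.

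Counts were tested with edgeR 4.0.16 in R 4.3.3 (filterByExpr, TMM, quasi-likelihood test, no covariate, Benjamini-Hochberg adjustment over all 12941 genes tested, two-sided) over all 6 libraries. The biological coefficient of variation was 0.0533. limma 3.58.1 served for log2(FPKM + 0.1 or 1) and voom, and DESeq2 1.42.0 as an alternative. Scripts were tested on simulated data. Gene positions, exon overlaps and GC content came from GENCODE 29 (GRCh38), matched by Ensembl ID (20113 of 20332). Promoters came from RefSeq.

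The 10 genes and the lists were chosen with earlier results of these data known. Named genes were RAC3, the 10 genes, HSPA5, EIF2AK3, ATF4 and DDIT3, then up to 3 higher and 3 lower genes of smallest p per list among those called, and the 3 genes nearest in profile to ERN1, ATF6 and XBP1. Genes that overlap the 10, VCP and the marker genes CD68, CD3E, PTPRC, COL1A1, PDGFRB and ACTA2 were named besides. A gene that the rule names is not reported here. The replicate numbers are not stated to mark a shared culture. Same-numbered libraries had deviations from their group means correlated at −0.0873, −0.0455 and −0.0207 over 11221 genes of at least 50 mean counts, so the numbers were not used to pair libraries. Alternatives were other scalings, tests and filters, GC correction, the replicate number as a block, leaving out each library, FPKM, a 1.5-fold threshold, a looser promoter motif and, added after the data were seen, RAC3 sample 1 alone.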

Additional observations from a re-analysis of the deposited data

How the results depend on the processing

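The count of 2 called genes among the 10 stood beside 3691 of 12941 genes tested. It came to 1 with DESeq2's test (3115 of all genes called) and 1 with no filter beyond genes without counts (3777 of 16572). The count was 0 with scaling by library size alone (3994 of 12941) and 0 at a fold change of 1.5 (605). With the GC trend removed it was 3 (2637 of 12863). When single libraries were left out it ran from 0 to 3 (2630 to 3311 of all genes). The median log2 fold change of the 10 came to −0.087 with the GC trend removed, −0.088 with that and the replicate block and −0.10 with RAC3 sample 1 alone. It came to −0.0054 with library size alone, where the median over all genes tested was 0.060. When single libraries were left out it ran from −0.094 to −0.039. The number of all genes called, 3691, came to 2395 with RAC3 sample 1 alone, 605 at a fold change of 1.5 and 2630 to 3311 when single libraries were left out. Library size alone gave 2613 genes higher and 1381 lower, against 1717 and 1974. Promoter matches in 3 genes came to 5 with 1 mismatch. With RAC3 sample 1 alone, the lone library is assumed to vary as the controls do. The cause of these differences was not tested.

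With the replicate number as a block, 3261 genes and 0 of the 10 were called in edgeR (XBP1 adjusted p = 0.0697, SYVN1 0.0821, and 4 of the 10 at an unadjusted p below 0.05). No library correlated best with its own number, and the libraries share only a number.

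Of 684 alternative values for 36 named genes, 28 changed sign. With FPKM and a pseudocount of 0.1, ATF6 came to 0.0070, CRELD2 to 0.032, PDIA4 to 0.012 and DDIT3 to 0.030 (0.0068, 0.031, 0.012 and 0.028 with a pseudocount of 1), and with library size alone to 0.023, 0.035, 0.011 and 0.035. The median over all genes tested was 0.054 with FPKM and a pseudocount of 0.1, 0.044 with a pseudocount of 1 and 0.060 with library size alone. Each of these values lay below the median of its setting. With the GC trend removed SEL1L came to −0.096, CRELD2 to 0.13, PDIA4 to 0.0059, EIF2AK3 to −0.057 and ATF4 to 0.015 (with the replicate block −0.098, 0.13, 0.0064, −0.056 and 0.016). MANF came to 0.029 with RAC3 sample 1 alone. Leaving out single libraries gave −0.027 to 0.054 for SEL1L, −0.049 to 0.030 for CRELD2 and −0.096 to 0.077 for DDIT3. None of these was called before or after. DNAJB9, CREB3L3, CREB3L2, UFD1, SEC62, SPCS3, PPP1R15B, ASNS, TRIB3, DDIT4 and RAC3 were called under all 19 alternatives. ATF3 and FAF2 were called under 18, HSPA5 under 17, ATF6B, DNAJC10, UBXN4 and SEC61A1 under 15, DNAJB11 and RNF5 under 12, SSR1 under 11 and SSR2 under 5 of the 19.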

Other observations

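Ratios of raw counts within a library need no scaling between libraries. The pairs were chosen after values were seen, and with 3 libraries per group the exact permutation test cannot give a p under 0.10. The ratio of SYVN1 to SEL1L was 0.621, 0.635 and 0.585 in the controls and 0.509, 0.560 and 0.559 with RAC3, without overlap (exact permutation p = 0.1). Such ratios are not corrected for GC content. With the GC trend removed SYVN1 came to −0.054 and SEL1L to −0.096 in the edgeR fit, so SYVN1 was no longer the lower of the 2. The ratio of XBP1 to ERN1 was 18.6, 21.9 and 23.3 in the controls and 17.9, 17.7 and 18.1 with RAC3, also without overlap. DNAJB9 to XBP1 was 0.141 ± 0.00185 in controls and 0.110 ± 0.00594 with RAC3 (mean ± SD, n = 3), and HSPA5 to HSP90B1 was 2.65 ± 0.0516 and 2.19 ± 0.114, both without overlap. The ratios of EDEM1 to SEL1L and of HERPUD1 to SEL1L overlapped between groups (exact permutation p = 0.2 and p = 0.3).

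Counts scaled to library size and divided by the authors' FPKM give a length, in kilobases, that each FPKM value was scaled by, up to a factor common to the library. For XBP1 and MANF the highest of the 6 values was 1.00 times the lowest. For SEL1L the values were 6.60, 7.92 and 7.20 in the controls and 6.72, 7.69 and 6.95 with RAC3, a spread of 1.20-fold that exceeded that of 78.1% of genes, and for ATF6 the spread was 1.14-fold. The median over genes was 1.07-fold.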
